A study of Bos taurus with 53 samples.

Results

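Embryonic discs of day 14 bovine embryos were compared between oocytes matured in high palmitic acid (HIGH PA) and oocytes matured in a basal fatty acid mixture (BASAL). The disc is the small cell mass of the hatched conceptus that forms the embryo proper, while the surrounding extraembryonic tissue is mainly trophectoderm with underlying hypoblast. Members were the disc libraries of both media with at least 10000 exon reads and any read of NNAT. This gave 8 HIGH PA and 10 BASAL discs, 18 of the 53 libraries of the series. Of 12 BASAL discs, replicate 7 was dropped at 6814 reads and replicate 12 at 0 NNAT reads among 2500029.

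Fatty acids were present only while oocytes matured in vitro, before fertilisation. HIGH PA medium held 150 µM palmitic, 28 µM stearic and 21 µM oleic acid. BASAL medium held 23 µM palmitic acid with the same stearic and oleic acid, and both media held 0.45% ethanol. A CONTROL medium without fatty acids or solvent gave 3 discs, all male and from cow 813, which are shown as values only. All zygotes were then cultured in serum-containing medium, and blastocysts were transferred to recipient cows in a crossover between BASAL and HIGH PA. Embryos were collected on day 14, and each disc library comes from a single embryo.

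The HIGH PA discs were 7 males and 1 female, 4 ovoid and 4 tubular, from 4 cows. The BASAL discs were 5 males and 5 females, 3 ovoid and 7 tubular, from 5 cows. Exon reads per disc ran from 119116 to 4005676 in HIGH PA (median 1860015) and from 1341534 to 6167850 in BASAL (median 2451272.5; exact two-sided permutation test, p = 0.210). HIGH PA replicate 5, the only female HIGH PA disc, stood apart with 119116 reads. Leaving it out of a fit leaves only males in HIGH PA, so depth and sex change together. In replicate 5, 1 read is worth 8.40 counts per 1000000 exon reads (CPM) and a count of 0 allows up to 25.2 CPM. In the other 17 discs that limit ran up to 5.55 CPM, and such limits cover counting error only. CONTROL replicate 1 was also shallow at 284848 exon reads, where a count of 0 allows up to 10.5 CPM. Intron reads made up 7.96 to 16.8% of gene reads in HIGH PA and 8.14 to 9.71% in BASAL (exact permutation p = 0.0423), with the highest share again in HIGH PA replicate 5. Uniquely placed reads made up 93.4 to 94.3% of exon reads in HIGH PA and 93.8 to 94.3% in BASAL (exact permutation p = 0.0271). Summed epiblast markers were 468 to 2330 CPM in HIGH PA and 463 to 1527 CPM in BASAL discs. In extraembryonic samples they were 49.5 to 491 CPM, which the lowest discs overlap. Summed trophectoderm markers had medians of 18971 CPM in HIGH PA discs, 20608 in BASAL discs and 25351 in extraembryonic samples. For hypoblast and yolk sac markers the medians were 8624, 9050 and 8920 CPM in the same order. By these lists the disc libraries are not epiblast alone. Markers of maternal blood and uterus summed to 21.4 to 82.8 CPM in HIGH PA and 10.7 to 81.9 CPM in BASAL discs. ITGAM, HBB and PAEP were at 0 in all 18 discs.

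Palmitic acid is a saturated fatty acid that rises in follicular fluid when an animal mobilises body fat. In excess it is known to load cells with lipid, to disturb the endoplasmic reticulum and mitochondria, and to alter metabolism. Marks set in the oocyte, such as DNA methylation of imprinted genes, can persist in the embryo, and KDM1B is a demethylase of histone H3 lysine 4 that the oocyte needs to set maternal imprints.

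No gene passed the test in discs. In edgeR's quasi-likelihood test with sex as a term, 0 of 10041 features had a Benjamini-Hochberg adjusted p under 0.05 (0.0%), and the lowest adjusted p was 0.356. At an unadjusted p under 0.05 there were 654 features, 310 higher in HIGH PA (3.09% of those tested) and 344 lower (3.43%). DESeq2 called 2, KDM1B and the unnamed ENSBTAG00000046117. Without BASAL replicate 3, ENSBTAG00000046117 alone was called in edgeR. The median log2 fold change over all features was -0.01, and the 95% interval of a typical gene reached 0.46 log2 units to either side. Several embryos shared a recipient cow, so the spread behind each p is one between embryos and not between cows. The second lowest p was that of ENSBTAG00000046117, which has no gene name in the table (log2 fold change 1.81, SE 0.366, edgeR adjusted p = 0.356). The genes below are, among features with a gene name, the 12 of lowest p in each direction and members of lists. They were named from this same comparison, so their values are a description, and features without a gene name are left out of them. The lists were chosen with earlier results of these data known, and some genes of lowest p are among their members. Counts of list members beside the shares of all features are thus a description too, and no test of the lists.

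KDM1B had the lowest p of all features (chromosome 23, 39166818 to 39204690, UMD3.1; ENSBTAG00000014608). Its level in HIGH PA discs had a lowest value of 0, a median of 7.57 and a highest of 16.6 CPM. In BASAL discs the lowest was 14.1, the median 21.1 and the highest 25.5 CPM, and the 3 CONTROL discs had 17.6, 22.5 and 19.3 CPM. Of the 8 HIGH PA discs 7 lay below every BASAL disc, and replicate 6 at 16.6 CPM lay inside the BASAL range. The 0 in replicate 5 is uninformative, since it allows up to 25.2 CPM. Means were 7.66 ± 5.00 CPM (SD, n = 8) and 20.8 ± 3.44 CPM (SD, n = 10), a log2 fold change of -1.37 (SE 0.274) with an edgeR adjusted p of 0.356. Without HIGH PA replicate 5 the log2 fold change was -1.31 and the edgeR adjusted p 0.563, and without replicate 6 they were -1.65 and 0.0180. DESeq2 gave an adjusted p of 0.00483 over all 18 discs.

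The lower KDM1B level was seen in each cow that carried discs of both media. In cow 07 the mean was 11.5 CPM over 3 HIGH PA and 21.1 over 2 BASAL discs. Cow 13 had 8.27 CPM over 2 HIGH PA discs and 17.8 in 1 BASAL disc. Cow 813 had 2.96 CPM in 1 HIGH PA disc, replicate 3 with its few reads, and 22.4 over 3 BASAL discs. Within sequencing lane 1 the log2 fold change was -1.02 and within lane 2 it was -2.0. Extraembryonic tissue had a log2 fold change of -0.45 (SE 0.284, unadjusted p = 0.123), and the difference between the parts, -0.80, had an edgeR unadjusted p of 0.105 and an adjusted p of 1.

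Of 16 histone demethylases and partners tested, 2 were lower and 0 higher at an unadjusted p under 0.05, against 3.43% and 3.09% of all features (list median -0.13, all features -0.01). Beside KDM1B this was PHF8, a demethylase of H3K9 and H4K20, at 20.2 ± 3.43 CPM in HIGH PA and 27.4 ± 5.64 CPM in BASAL (log2 fold change -0.43, SE 0.171, edgeR adjusted p = 0.727). KDM1A, the closest relative of KDM1B, had a log2 fold change of 0.13 (SE 0.123). Of 15 genes of DNA methylation and imprint maintenance tested, 0 had an unadjusted p under 0.05. Of 13 imprinted genes, MEST at 1.1 (SE 0.494) and DIRAS3 at 1.28 (SE 0.532) were higher and the trophoblast regulator ASCL2 at -0.80 (SE 0.365) was lower at an unadjusted p under 0.05, where all features gave 3.09% higher and 3.43% lower. The edgeR adjusted p was 0.757 for each of these 3.

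**Figure D1:**
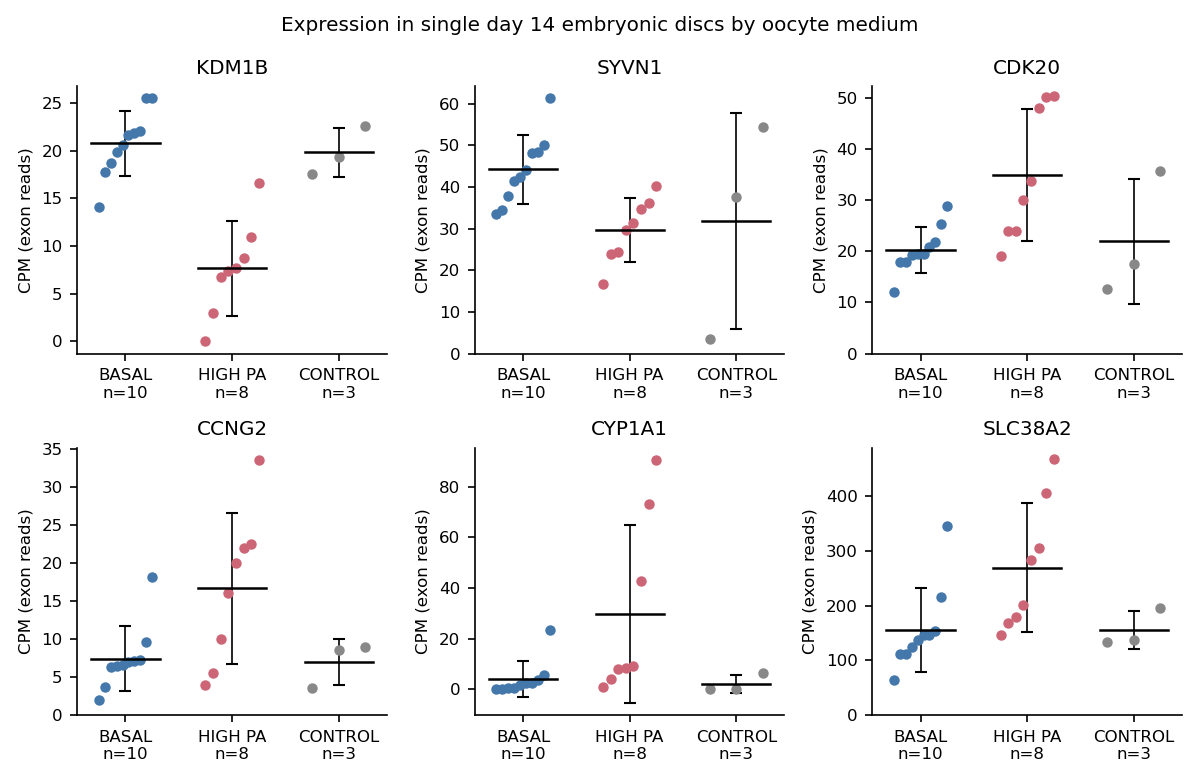
CPM (vertical axis, linear, each panel with its own scale) of 6 genes in single discs of BASAL (n = 10), HIGH PA (n = 8) and CONTROL (n = 3) embryos; points are discs, bars the mean and whiskers the SD. KDM1B is the panel with the least overlap, with 7 of 8 HIGH PA discs below the lowest BASAL disc at 14.1 CPM, while the other 5 panels overlap between HIGH PA and BASAL.

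No feature had HIGH PA and BASAL discs fully apart, with 0 above (0.0%) and 0 below (0.0%). Counting features with at least 7 of 8 HIGH PA discs below all BASAL discs gave 7 (0.0697%), and at least 7 above also gave 7 (0.0697%). The 7 below were KDM1B, BNIP3, CCDC77, KAZN, KCTD13, MSL3 and PUS7L. BNIP3, a receptor for the removal of mitochondria, had a median of 15.1 CPM in HIGH PA and 49.7 CPM in BASAL discs, but 1 HIGH PA disc reached 175 CPM, and the log2 fold change was -0.80 (SE 0.537). BNIP3, CCDC77, KAZN, KCTD13 and MSL3 had 0 reads in HIGH PA replicate 5. Among the 7 above were PPA1, an inorganic pyrophosphatase, at 91.2 ± 15.7 CPM in HIGH PA and 72.1 ± 5.01 CPM in BASAL, and YWHAE, a 14-3-3 adaptor protein, at 1102 ± 87.9 and 964 ± 61.4 CPM. Their log2 fold changes were 0.33 (SE 0.113) and 0.16 (SE 0.0728). These genes were picked after their values were seen.

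The aryl hydrocarbon receptor is a ligand-activated transcription factor whose best known targets are the xenobiotic-metabolising enzymes CYP1A1 and CYP1B1. CYP1A1 (chromosome 21, 34342807 to 34345682) was at 1.13 CPM in its lowest HIGH PA disc, 8.82 at the median and 90.7 in the highest. In BASAL discs it ran from 0 through a median of 2.14 to 23.6 CPM, and CONTROL discs had 0, 0.389 and 6.44 CPM. Discs above every BASAL disc were HIGH PA replicates 2, 4 and 8, at 90.7, 42.9 and 73.0 CPM. The log2 fold change was 3.74 (SE 1.02) with an edgeR adjusted p of 0.607. Over 40 alternative fits this log2 fold change ran from 2.77 to 6.47. CYP1B1 did not pass the filter on low counts and was not tested. It reached 16.2 CPM in HIGH PA and 5.07 CPM in BASAL, and 5 of 8 HIGH PA discs lay above all BASAL discs. In BASAL discs CYP1B1 summed to 15 reads, and in HIGH PA to 131. Among the features tested, which do not hold CYP1B1, at least 4 HIGH PA discs lay above all BASAL discs for 498 (4.96%). Shares at the disc counts of CYP1A1 and CYP1B1 themselves were not taken.

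TIPARP, a repressor of the receptor, had a log2 fold change of 0.61 (SE 0.275, unadjusted p = 0.0368), whereas NQO1 was at -0.02, the partner ARNT at -0.07 and NFE2L2 at -0.15. For this list 2 of 7 tested genes had an unadjusted p under 0.05, both higher, against 3.09% of all features higher. BASAL replicate 1, a female tubular disc from cow 813, was the highest BASAL disc for CYP1A1 (23.6 CPM), CYP1B1 (5.07 CPM) and TIPARP (46 CPM). HIGH PA replicate 6 had 1.13 CPM of CYP1A1 and 0 of CYP1B1.

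Endoplasmic reticulum chaperones fold secreted proteins and are raised when misfolded proteins build up. A list of these chaperones and of other genes of the response to misfolded proteins held 27 tested genes. Of these 23 had a log2 fold change below 0, with a median of -0.14, while 48.9% of all features were above 0. At an unadjusted p under 0.05, 3 were lower and 0 higher, against 3.43% and 3.09% of all features. SYVN1, the ubiquitin ligase of endoplasmic reticulum degradation, was at 16.8, 30.5 and 40.1 CPM (lowest, median, highest) in HIGH PA and at 33.5, 43.3 and 61.4 CPM in BASAL discs. The lowest of these HIGH PA values was in replicate 5, where 1 read is worth 8.40 CPM. The log2 fold change of SYVN1 was -0.65 (SE 0.161, edgeR adjusted p = 0.607). CONTROL discs ran from 3.51 to 54.3 CPM, the lowest being replicate 1, where 1 read is worth 3.51 CPM. CRELD2, a chaperone of that compartment, had 91.5 ± 26.3 against 125 ± 22.1 CPM (log2 fold change -0.59, SE 0.154), and HYOU1, a large chaperone of the HSP70 kind, 298 ± 37.8 against 359 ± 53.0 CPM (-0.39, SE 0.113). SEC16A, which organises exit sites of the endoplasmic reticulum, was lower at -0.45 (SE 0.119), and GGA3, a sorting adaptor of the Golgi, at -0.81 (SE 0.217), neither passing the test.

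**Figure D2:**
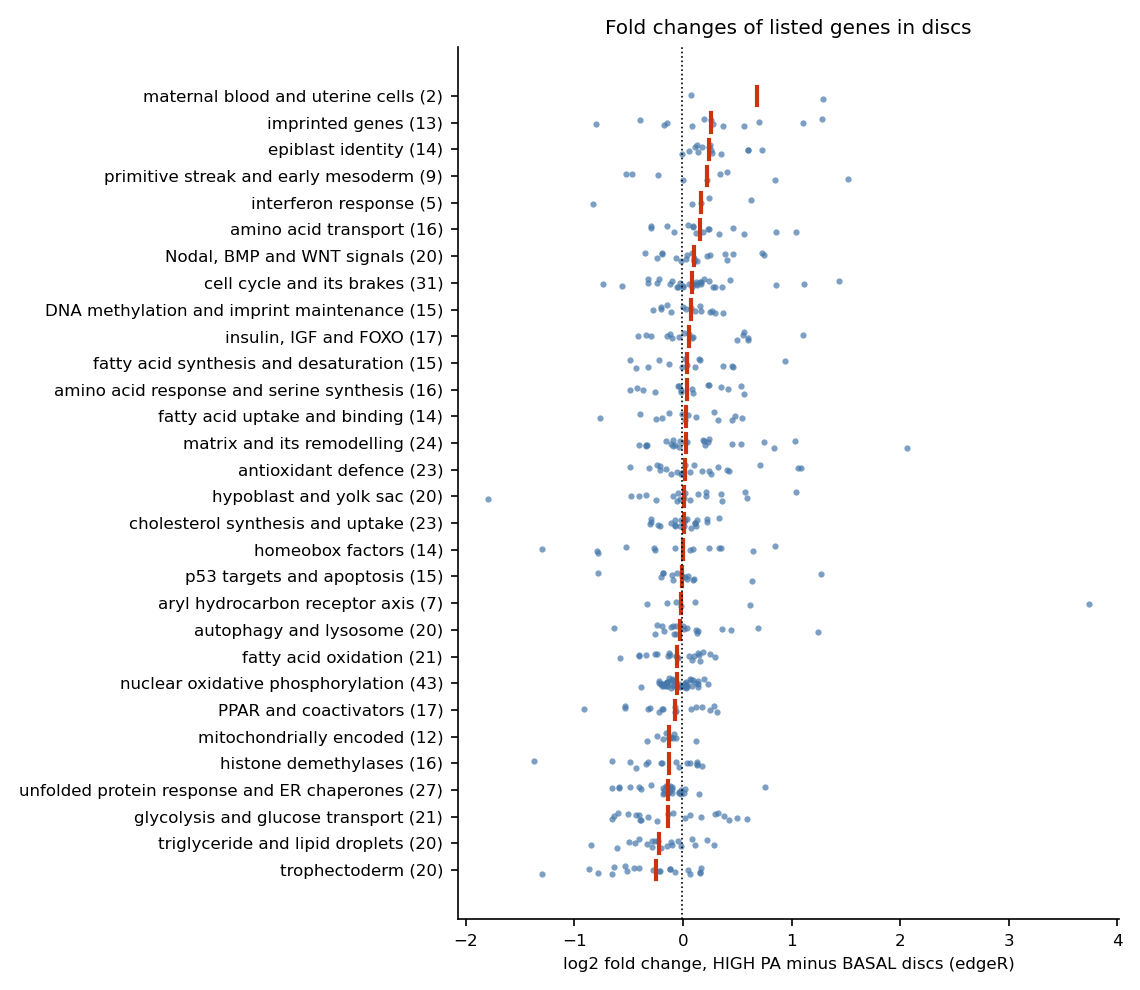
Log2 fold change of HIGH PA minus BASAL discs (horizontal axis) for the tested members of each gene list, with the number tested in brackets; points are genes, red bars list medians, and the dotted line the median of all 10041 features. Most of the 27 genes of the unfolded protein response and endoplasmic reticulum chaperones sit left of the line with a median of -0.14. Most lists hold genes on both sides of it.

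Of 31 cell cycle genes tested, 6 were higher and 1 lower at an unadjusted p under 0.05, against 3.09% and 3.43% of all features (list median 0.09). CDK20, a cyclin-dependent kinase, was at 19.2, 31.8 and 50.4 CPM (lowest, median, highest) in HIGH PA and 12.0, 19.4 and 28.9 CPM in BASAL. That was a log2 fold change of 0.86 (SE 0.204, edgeR adjusted p = 0.607). Above all BASAL discs lay 5 of 8 HIGH PA discs, while 4.96% of all features had at least 4. CCNG2, a cyclin that slows division, was at 16.7 ± 9.93 and 7.41 ± 4.31 CPM (1.43, SE 0.406), and PCNA, the sliding clamp of replication, at 353 ± 61.8 and 277 ± 38.3 CPM (0.36, SE 0.112). TP53INP1, a p53 target, had a log2 fold change of 1.27 (SE 0.328), which was 1.00 without HIGH PA replicate 5, where it was at 33.6 CPM. The lower member was CCND2 at -0.74 (SE 0.247).

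Amino acid transporters gave 3 higher and 1 lower of 16 tested at an unadjusted p under 0.05, against 3.09% and 3.43% of all features. Of the 16, 12 were above 0, as were 48.9% of all features. SLC38A2, which takes up neutral amino acids, was at 146, 242 and 469 CPM in HIGH PA (lowest, median, highest) and at 63.3, 142 and 346 CPM in BASAL. The log2 fold change was 1.04 (SE 0.315, edgeR adjusted p = 0.669), and the highest BASAL disc was again replicate 1 at 346 CPM. SLC1A5, a glutamine carrier, had 0.56 (SE 0.203) and SLC7A3, a carrier of basic amino acids, 0.85 (SE 0.319).

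Of 21 glycolysis and glucose transport genes tested, 6 were lower and 2 higher at an unadjusted p under 0.05, against 3.43% and 3.09% of all features. Lower were GPI, ALDOA, TPI1, PGK1, LDHA and HK2, and higher PFKP and LDHB. GPI, which interconverts glucose and fructose phosphates, had 351 ± 65.8 CPM in HIGH PA and 476 ± 116 CPM in BASAL (log2 fold change -0.51, SE 0.161, edgeR adjusted p = 0.669). ALDOA had -0.41 (SE 0.134) and TPI1 -0.44 (SE 0.149). Of 12 tested genes encoded in the mitochondrial genome, 11 were below 0 and 1 above (all features, 48.9% above), with a median of -0.13. Among these 12, 0 had an unadjusted p under 0.05. The share of mitochondrial reads ran from 2.31 to 5.67% in HIGH PA and from 2.80 to 6.48% in BASAL discs (exact permutation p = 0.432).

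Of 20 triglyceride and lipid droplet genes tested 16 were below 0 and 4 above (median -0.22), while 48.9% of all features were above 0. In this list 2 genes were lower and 0 higher, against 3.43% and 3.09% of all features: AGPAT2, which makes phosphatidic acid, and PLIN3, a droplet coat protein, at an unadjusted p under 0.05. AGPAT2 had 34.1 ± 14.3 against 46.5 ± 11.3 CPM (-0.61, SE 0.222). Of 15 fatty acid synthesis and desaturation genes 3 were higher and 0 lower at an unadjusted p under 0.05, against 3.09% and 3.43% of all features. SREBF1, the regulator of lipid synthesis, was at 130 ± 31.6 against 92.7 ± 18.4 CPM (0.46, SE 0.171), followed by ELOVL5 and SCD5. PPARGC1B, a coactivator of mitochondrial and lipid genes, had 10.9 ± 6.10 against 20.0 ± 5.17 CPM (-0.92, SE 0.258, edgeR adjusted p = 0.607). Of 14 fatty acid uptake and binding genes tested, 1 was higher and 1 lower at an unadjusted p under 0.05, against 3.09% and 3.43% of all features. The higher gene was FABP5, a carrier of fatty acids (0.32, SE 0.150). The lower gene was SCARB1, which had the lower p of these (-0.77, edgeR unadjusted p = 0.0105). Fatty acid oxidation had 0 of 21 and cholesterol synthesis 0 of 23 at an unadjusted p under 0.05.

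Of 14 epiblast genes tested 13 were above 0 (median 0.24; all features, 48.9% above and median -0.01), with NODAL at 0.72 (SE 0.456) and SOX2 at 0.11 (SE 0.5), and 0 had an unadjusted p under 0.05. Of 20 trophectoderm genes 15 were below 0 and 5 above (median -0.25). At an unadjusted p under 0.05, 5 were lower and 0 higher, against 3.43% and 3.09% of all features. These were DLX5, DLX3, GATA3, TFAP2A and TFAP2C, transcription factors of the trophoblast lineage. DLX5 was at 0, 10.2 and 21.4 CPM in HIGH PA and at 11.8, 22.6 and 43.3 CPM in BASAL (lowest, median, highest), a log2 fold change of -1.30 (SE 0.327, edgeR adjusted p = 0.607). DLX3 had 21.5 ± 9.51 against 39.1 ± 10.2 CPM (-0.78, SE 0.265), and GATA3 39.1 ± 17.7 against 56.0 ± 11.4 CPM (-0.64, SE 0.232). Summed trophectoderm markers were 9510 to 23886 CPM in HIGH PA and 14103 to 24041 CPM in BASAL, and a different share of trophectoderm in the dissected disc and less RNA per cell cannot be told apart. The part of this lean in the other results was not tested.

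Of 24 matrix genes tested 4 were higher and 0 lower at an unadjusted p under 0.05, against 3.09% and 3.43% of all features. These were MMP2, SPP1, TIMP1 and the integrin ITGB1. MMP2, a collagenase, was at 150 ± 107 CPM in HIGH PA and 92.8 ± 42.9 CPM in BASAL (1.03, SE 0.390). Of 23 antioxidant genes 3 were higher, GPX7, GPX8 and PGD, and 1 lower, catalase (CAT), beside the same shares of all features. HIGH PA replicate 5 was the highest disc for GPX7 and GPX8, at 50.4 CPM each. Of 20 genes of Nodal, BMP and WNT signals and of 9 streak and early mesoderm genes, 0 had an unadjusted p under 0.05. T, the streak factor brachyury, was at 0.564 to 71 CPM in HIGH PA and 0 to 52.9 CPM in BASAL discs (1.52, SE 0.966).

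Other genes among the 24 named by lowest p belonged to none of the lists. FOXI3, a forkhead factor, was at 2.82, 10.3 and 19.2 CPM in HIGH PA and 0.745, 3.03 and 9.66 CPM in BASAL discs (lowest, median, highest), a log2 fold change of 1.89 (SE 0.520). DUSP18, a phosphatase, was at 1.44 (SE 0.401), NFYB, a subunit of the CCAAT-binding factor, at 0.97 (SE 0.262), and SNUPN, an importer of spliceosomal particles, at 0.69 (SE 0.200). WBSCR17, a glycosyltransferase, was at 8.40, 20.9 and 46.9 CPM in HIGH PA and 29.8, 50.7 and 93.3 CPM in BASAL discs, a log2 fold change of -1.04 (SE 0.273). SH2B1, an adaptor of insulin and leptin signalling, was at -0.76 (SE 0.200), and CCNL2, a cyclin linked to splicing, at -0.57 (SE 0.139). For each gene in this paragraph the edgeR adjusted p was 0.607.

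**Figure D3:**
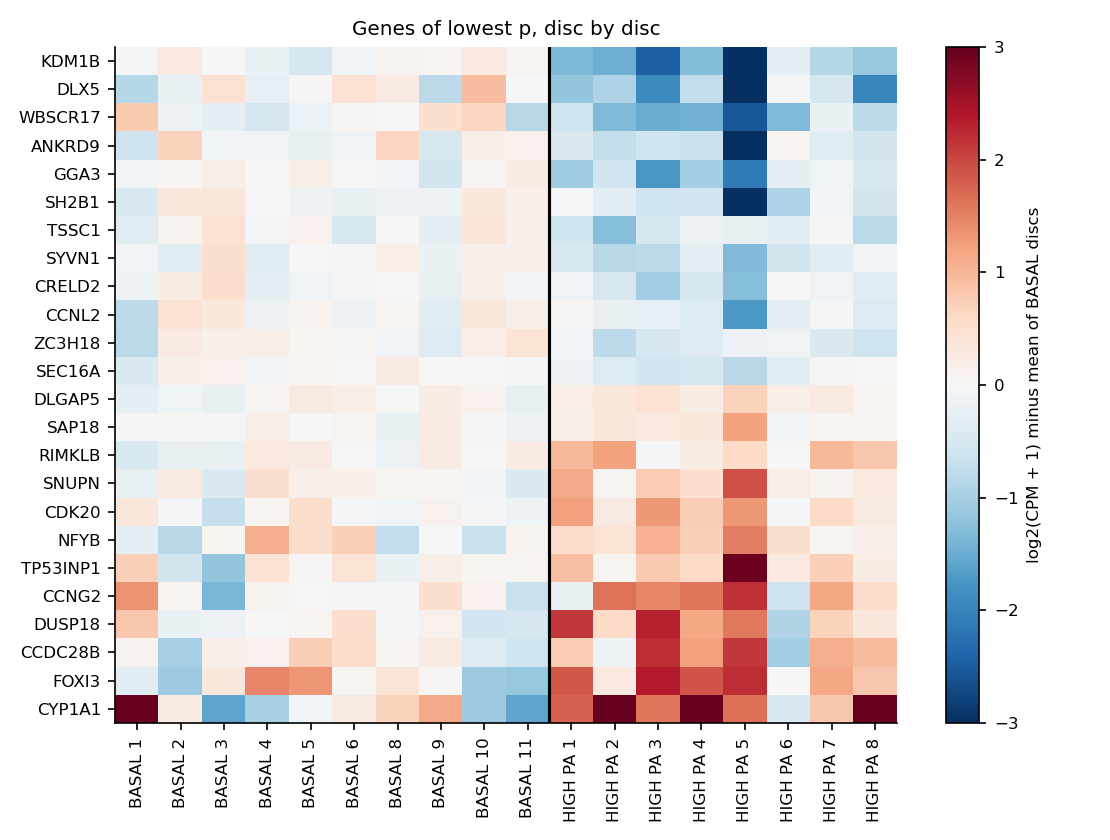
Colour shows log2(CPM + 1) minus the mean of the BASAL discs, ending at -3 and 3, for the 24 genes of lowest p (rows) in each disc (columns; BASAL left of the line, HIGH PA right). HIGH PA replicate 5 has the strongest colours at 119116 reads, and HIGH PA replicate 6 is closest to BASAL.

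Discs within a medium differed widely. For the 24 genes of lowest p, HIGH PA replicate 6, a male tubular disc from cow 07, was the HIGH PA disc nearest the BASAL side for 11. BASAL replicate 1 was the BASAL disc nearest the HIGH PA side for 10. Leaving out HIGH PA replicate 6 took the features at an unadjusted p under 0.05 from 654 to 1119, and leaving out all discs of cow 07, which gave 3 HIGH PA and 2 BASAL discs, to 1708, both with few or no calls (1 and 0). With recipient cow as a block there were 404.

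Extraembryonic tissue of the same study, 9 HIGH PA and 13 BASAL samples, gave 0 of 10475 called (0.0%) and 365 at an unadjusted p under 0.05. Among these samples HIGH PA replicate 10, from cow 25, was a spherical embryo, a shape that no BASAL sample and no disc had. Extraembryonic BASAL replicate 11 had 20.9% mitochondrial reads. The difference of effect between disc and extraembryonic tissue, in embryos with both parts (8 and 10), gave 0 of 10996 (0.0%) and 301 at an unadjusted p under 0.05. SYVN1 had a log2 fold change of 0.06 (SE 0.166) in extraembryonic tissue and a difference of -0.76 (edgeR unadjusted p = 0.00722, adjusted p = 1). ANKRD9, at 8.03 ± 3.77 against 13.4 ± 4.51 CPM in discs, had 0.12 (SE 0.154) in extraembryonic tissue and a difference of -1.09 (edgeR unadjusted p = 0.000877, adjusted p = 1). RIMKLB, an enzyme that joins glutamate to N-acetylaspartate, was higher in both, at 0.68 (SE 0.194) in discs and 1.30 (SE 0.491) in extraembryonic tissue, without passing the test in either.

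**Figure D4:**
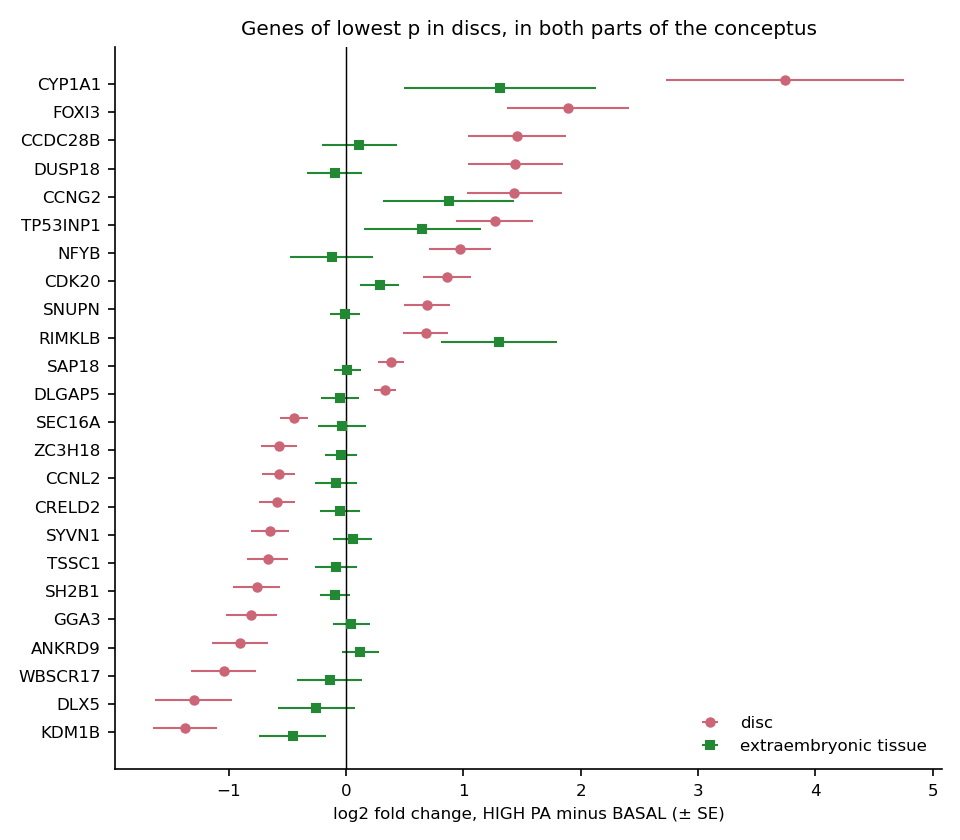
Log2 fold change of HIGH PA minus BASAL (horizontal axis, whiskers are SE) in discs (8 and 10) and extraembryonic tissue (9 and 13) for the 24 genes of lowest p in discs; FOXI3 was not tested in extraembryonic tissue. The genes were chosen on the disc values, and RIMKLB is the only one whose extraembryonic value is the larger.

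Intron reads, a second readout of the same libraries, gave 1 call among 3597 features (0.0278%). RNF123, a ubiquitin ligase (chromosome 22, 51054913 to 51078183, ENSBTAG00000011588), had 16.8, 33 and 37.5 intron reads per 1000000 exon reads in HIGH PA discs (lowest, median, highest). In BASAL discs the values were 41.2, 58.8 and 74.5, and CONTROL discs had 52.7, 48.2 and 102. All 8 HIGH PA discs lay below all 10 BASAL discs, as for 1 feature in all (0.0278%). The lowest value, 16.8, is that of HIGH PA replicate 5, where 1 read is worth 8.40 on this scale. It rests on very few reads, so counting error leaves the place of this disc open. Without it the log2 fold change of RNF123 was -1.08, with an edgeR adjusted p of 0.0383. Over all 18 discs the log2 fold change was -1.18 (SE 0.209, edgeR adjusted p = 0.0181), so reads counted as intronic in RNF123 fell in HIGH PA. Its exon reads had a log2 fold change of -0.03 (SE 0.190). Per 1000000 intron reads the values also lay apart, at 83.2 to 398 in HIGH PA and 421 to 732 in BASAL. The 83.2 is again replicate 5 and rests on the same few reads. The direction was the same in all 40 alternatives, and the call was lost in 21. Among these were recipient cow as a block (edgeR adjusted p = 0.984), no sex term (0.110) and lane as a term (0.0812). It was also lost on leaving out BASAL replicate 2, 3, 8 or 10 or HIGH PA replicate 7, with an edgeR adjusted p of up to 0.0832. What this column counts is not stated in the sources used here. It holds reads for ND2 too, a mitochondrial gene without introns, at 70.0 ± 22.6 per 1000000 exon reads in HIGH PA and 115 ± 36.1 in BASAL discs. ND2 had the second lowest p there (log2 fold change -1.0, SE 0.226, edgeR adjusted p = 0.236) and was called by DESeq2, so the values cannot be taken as reads of unspliced RNA alone. Intron shares were higher in HIGH PA discs, and their part in this result was not tested. AMIGO3 lies within RNF123 (51056713 to 51058249), at 0.749 CPM in HIGH PA and 0.248 CPM in BASAL discs.

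**Figure D5:**
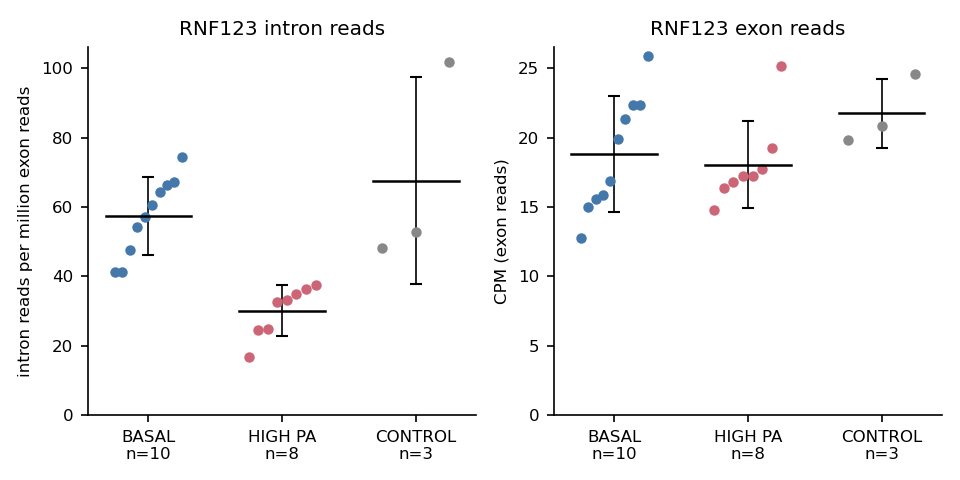
Intron reads of RNF123 per 1000000 exon reads (left) and its exon reads in CPM (right) in BASAL (n = 10), HIGH PA (n = 8) and CONTROL (n = 3) discs; points are discs, bars means and whiskers SD. HIGH PA discs end at 37.5 on the left, below the lowest BASAL disc at 41.2, and overlap BASAL on the right.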

How the data were processed

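Libraries were TruSeq stranded mRNA, sequenced as paired 50 base reads, per the labels' protocols. The table deposited by the authors holds whole-number counts of exon reads, of uniquely placed exon reads and of intron reads for 24596 features and 53 libraries, with no scaling. Per the submitters' processing notes, reads were placed on UMD3.1 and DESeq2 1.10.1 was among the tools. For the aligner, no name is given in the sources used here. Members, gene lists and rules were chosen with earlier results of these data known. POU5F1, NANOG, CDX2, GATA6 and XIST are not analysed here, and no promoter search was made because no promoter table was used here.

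Exon counts of 18 discs were fitted in edgeR 4.0.16 by quasi-likelihood, with TMM factors, filterByExpr and Benjamini-Hochberg adjustment at 0.05, with medium and sex as terms. Intron counts and extraembryonic samples were fitted alike, and the difference between tissues with embryo as a block. CPM are counts scaled to 1000000 exon reads per library. SEs came from dividing the size of a log2 fold change by the root of its F. Named genes were, among features with a gene name, the 12 of lowest p per direction, up to 3 members per list by p, and the aryl hydrocarbon receptor and histone demethylase lists; the text gives a part. Fits were tested on simulated counts drawn independently for each disc, without sex or cow effects. That test cannot check how embryos sharing a cow affect the calls. DESeq2 1.42.0, other scaling, terms, samples and lanes were alternatives; embryos of one cow and medium were assumed to share a flush in 2 of them, as the labels give no flush, and those on lanes were added after the data were seen. Figures used matplotlib 3.10.9.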

Additional observations from a re-analysis of the deposited data

Results flagged for a closer look

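Of 50 groups of discs checked on log2(CPM + 1), 8 had a highest or lowest disc far from the others, and chance alone marks about 1 in 20. HIGH PA replicate 5, the disc of 119116 reads, accounted for 6. It was the highest HIGH PA disc for TP53INP1 (33.6 CPM) and SAP18 (428 CPM), and the lowest for CCNL2 (16.8 CPM). DLX5, ANKRD9 and SH2B1 were at 0 in it, where a count of 0 allows up to 25.2 CPM. BASAL replicate 1 was the lowest BASAL disc for SEC16A (110 CPM), and BASAL replicate 9 for GGA3 (26.7 CPM).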

How the results depend on the processing

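The 47 genes followed in exon reads were recomputed under 41 alternatives, with 1904 values in all, and 2 reversed: ND2 without cow 07 (0.12) and CD74 in lane 1 alone (-0.022). The count of calls in exon reads stayed at 0 except for DESeq2 (2), no filter on low counts (2, HEPHL1 and TNFAIP2) and leaving out 1 disc (0 to 1). KDM1B ran from -2.0 to -1.02 and passed the test under DESeq2 and without HIGH PA replicate 6. In intron reads the count was 3 under DESeq2, 16 with no filter on low counts, and 0 to 2 when 1 disc was left out. It was 0 with recipient cow as a replicate block, no sex term, males only, tubular embryos only, CONTROL discs in the fit, the 2 dropped libraries restored, each cow left out, counts summed per cow and medium, lane as a term and each lane alone. RNF123 kept its direction in all 40 alternatives, from -1.41 to -0.98, and lost its call in 21; among left-out discs that happened for BASAL replicates 2, 3, 8 and 10 and HIGH PA replicate 7. In 11 pairs of discs from the same cow in other media, the median correlation of deviations was -0.08, and 1 pair was over 0.1. In 69 pairs from other cows in other media it was 0.00045, and 15 were over 0.1. These pairs share discs and leave out discs of one cow and medium, so they cannot settle a cow effect. The fit with flush as a correlated block gave a correlation of 0.13 in exon and 0.081 in intron reads. With the cow as a block, 0 exon features were called and 404 had an unadjusted p under 0.05; over all alternatives that number ran from 218 (lane 1 alone) to 1708 (without cow 07). Depth limits single discs most in HIGH PA replicate 5.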
